A study of Mus musculus with 12 samples.

Results

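The Mas-related G protein-coupled receptors (Mrgprs) examined here are 7 genes, Mrgprd, Mrgpra3, Mrgprx1, Mrgprb4, Mrgprb5, Mrgpre and Mrgprf. They were taken by gene symbol from a count table of 49315 genes, and each symbol matched 1 row. Expression was measured by bulk poly(A) RNA sequencing of dorsal root ganglia (DRG) from 12 mice aged 10 months, with about 8 DRG pooled per mouse and 1 library per mouse. The Nf2 group held 6 mice of genotype Postn-Cre(+);Nf2 flox/flox. The DKO (double knockout) group held 6 mice with the same transgene and Nf2 alleles that were in addition Fak1 flox/flox, floxed in the gene for focal adhesion kinase (Ptk2, or Fak). Each genotype had 3 mice labelled male and 3 labelled female. Mice of both genotypes therefore carry the Cre transgene and the Nf2 deletion, and there was no wild-type group. The Periostin (Postn) promoter drives Cre in Schwann cells and their precursors, so the sensory neurons that express Mrgprs were not the cells the design targets.

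DRG hold the cell bodies of sensory neurons together with satellite glia, Schwann cells, vessels and immune cells. Most Mrgprs are expressed in small nonpeptidergic C-fiber neurons, a lineage marked by the receptor tyrosine kinase Ret and specified with the transcription factor Runx1. Different receptors mark different subsets: Mrgprd, a receptor for beta-alanine, marks the NP1 class of polymodal nociceptors, and Mrgpra3, the chloroquine receptor, marks the NP2 class of itch neurons. Mrgprx1 is the current symbol of the receptor long called MrgprC11, which responds to BAM peptides and is coexpressed with Mrgpra3. Mrgprb4 marks C fibers that respond to stroking of hairy skin, and Mrgprb5 is its closest relative among these genes. Mrgpre and Mrgprf are orphan receptors.

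All 7 genes lie on mouse chromosome 7 (GRCm38, GENCODE M21 annotation) and are protein coding. Mrgpra3 (chr7:47588950-47601372), Mrgprx1 (chr7:48020971-48027597), Mrgprb5 (chr7:48167983-48169019) and Mrgprb4 (chr7:48198070-48199288) are on the minus strand of 1 large Mrgpr cluster. Mrgpre (chr7:143778363-143784500, minus strand), Mrgprf (chr7:145300828-145309557, plus strand) and Mrgprd (chr7:145314835-145324086, plus strand) lie far from it, Mrgprf and Mrgprd next to each other. Mrgpre overlaps 1 small annotated gene, Gm22064, on the opposite strand.

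Cluster genes resemble each other, which bears on whether a read can be assigned to 1 of them. The coding sequences of Mrgprb4 and Mrgprb5 were 84.9% identical, and those of Mrgpra3 and Mrgpra4, a cluster gene outside the 7, were 88.6% identical. The stretch of 240 coding bases in which Mrgprb4 and Mrgprb5 are most alike is printed because the result below with the widest spread concerns this pair. It is exonic in both genes, at chr7:48198221-48198460 for Mrgprb4 and chr7:48168025-48168264 for Mrgprb5 (GRCm38, minus strand, 5′ to 3′, sequence from GENCODE M21 transcripts), and the capitals mark the 27 bases at which the genes differ.
Mrgprb4: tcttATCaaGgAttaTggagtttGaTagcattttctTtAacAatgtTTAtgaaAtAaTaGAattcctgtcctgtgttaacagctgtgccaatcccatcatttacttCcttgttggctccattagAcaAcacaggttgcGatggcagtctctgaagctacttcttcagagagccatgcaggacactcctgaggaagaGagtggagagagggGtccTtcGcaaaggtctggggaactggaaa
Mrgprb5: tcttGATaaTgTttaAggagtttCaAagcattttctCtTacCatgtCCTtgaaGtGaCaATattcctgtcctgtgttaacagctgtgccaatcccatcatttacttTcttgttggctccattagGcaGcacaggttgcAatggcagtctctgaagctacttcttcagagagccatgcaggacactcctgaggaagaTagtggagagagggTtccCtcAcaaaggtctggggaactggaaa
The later part of the stretch holds long runs without any capital, and the early part differs every few bases. Over whole transcripts, 8 of 988 different 50-base words of Mrgprb5 (0.81%) and 17 of 1170 of Mrgprb4 (1.45%) also occurred in another gene. Mrgpra3 shared 7.14% of its words and Mrgprx1 shared 5.84%, in both cases mostly with other cluster genes and pseudogenes. Mrgprf and Mrgprd shared none.

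Libraries held 21129191 to 41250329 counts in genes. CPM, the counts scaled to equal library totals, summed over 10 pan-neuronal genes ran from 5986 to 9255 in Nf2 mice and from 6563 to 8040 in DKO mice, so neuronal RNA was plentiful in every library. Ptk2 itself averaged 70.0 CPM in the Nf2 group and 64.0 CPM in the DKO group (n = 6 each, log2 fold change -0.15 ± 0.10 SE, edgeR adjusted p = 0.529), so its total level in whole DRG did not separate the genotypes. Nf2 mouse 702 was labelled male but had 496 CPM of Xist and 0.525 CPM of Ddx3y, levels found in the mice labelled female. Comparisons by sex below use the labels, and those that include this mouse were also run without it. In whole DRG, fewer neurons of a class and less RNA per neuron cannot be told apart.

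All 7 receptors were detected in every mouse and passed the filter on low counts. Scaled to exon length as well (TPM), so that genes can be compared, their mean levels over the 12 mice followed the order Mrgprd (122 ± 25.0), Mrgprb5 (80.8 ± 41.0), Mrgpra3 (78.0 ± 18.4), Mrgprf (54.9 ± 17.1), Mrgprx1 (30.4 ± 9.74), Mrgprb4 (28.8 ± 23.3) and Mrgpre (24.0 ± 3.14 TPM, SD, n = 12). Mrgprd exceeded Mrgprb5 in 11 of 12 mice, and Mrgprf exceeded Mrgprx1 in 11 of 12. The neighbours Mrgprb5 and Mrgpra3 did not keep their order, since Mrgprb5 was the higher in only 5 mice. Mrgprx1 was above Mrgprb4 in 7 mice and Mrgprb4 above Mrgpre in 8, so the lower 3 receptors were not ordered beyond their spread.

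Whether additional loss of Fak in the Schwann lineage went with a change in these receptors was addressed by comparing DKO with Nf2 mice. With edgeR's quasi-likelihood test on raw counts, 172 of 18295 genes passed an adjusted p of 0.05 (0.94%), 68 higher in DKO (0.372%) and 104 lower (0.568%). None of the 7 receptors passed (0 of 7). At an unadjusted p under 0.05 there was 1 of 7, Mrgprf, against 14.9% of all genes. DESeq2 and limma voom also called 0 receptors, and 831 and 521 of the 18295 genes. At an unadjusted p under 0.05 they had 1 and 2 receptors, beside 2951 and 3389 of the 18295 genes. For all 7 the ranges of both genotypes overlapped, as they did for all but 1.95% of genes.

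**Figure D1:**
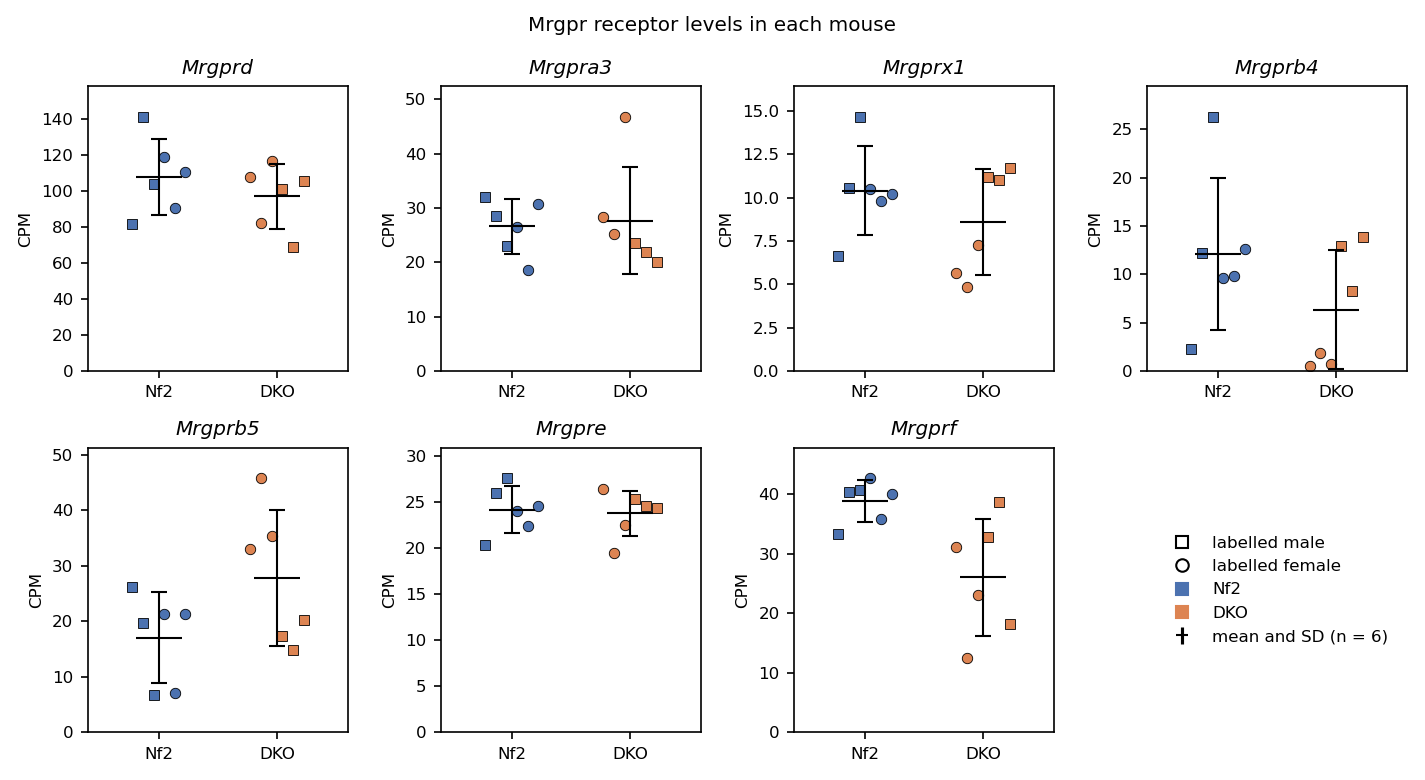
Level of each receptor in CPM (vertical axes, starting at 0) in the 6 Nf2 and 6 DKO mice, 1 point per mouse, squares for mice labelled male and circles for female, with the group mean and SD. In each panel the genotypes overlap; Mrgprb4 has 3 DKO females between 0.531 and 1.83 CPM, and Mrgprf has all 6 DKO mice below the Nf2 mean.

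Mrgprd, the NP1 receptor, was the most abundant. It ran from 81.9 to 141 CPM in Nf2 mice (median 107) and from 68.7 to 117 CPM in DKO mice (median 103). The groups covered nearly the same range, with Nf2 mouse 702 highest and DKO mouse 915 lowest. The means were 107.9 ± 21.2 and 97.0 ± 17.9 CPM (SD, n = 6 each), a log2 fold change of -0.17 ± 0.15 SE (95% interval -0.50 to 0.16, edgeR adjusted p = 0.648).

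The itch receptors Mrgpra3 and Mrgprx1 were also measured at overlapping levels. Mrgpra3 had a lowest, median and highest value of 18.6, 27.5 and 32.0 CPM in the Nf2 group and 20.1, 24.4 and 46.8 CPM in DKO mice. The DKO maximum came from 1 female, mouse 887, and the other DKO mice lay within the Nf2 range. Its log2 fold change was 0.04 ± 0.20 SE (95% interval -0.41 to 0.49, edgeR adjusted p = 0.950), and it turned to -0.19 without mouse 887. Mrgprx1 was 6.64, 10.4 and 14.7 CPM in the Nf2 group and 4.85, 9.17 and 11.7 CPM in DKO mice, with the DKO males above 11 CPM and the DKO females at or below 7.29 CPM. The log2 fold change of Mrgprx1 was -0.29 ± 0.23 SE (95% interval -0.80 to 0.22, edgeR adjusted p = 0.616).

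Of the orphan receptors, Mrgpre was the steadiest of the 7. Its values were 20.4, 24.3 and 27.6 CPM (lowest, median, highest) in Nf2 mice and 19.5, 24.5 and 26.4 CPM in DKO mice, and the log2 fold change was -0.04 ± 0.09 SE (95% interval -0.24 to 0.15, edgeR adjusted p = 0.867). Mrgprf was 33.2, 40.1 and 42.7 CPM in the Nf2 group and 12.5, 27.0 and 38.6 CPM in DKO mice. Every DKO mouse lay under the Nf2 mean. DKO females 885, 886 and 887, at 31.1, 12.5 and 23.0 CPM, lay under the lowest Nf2 mouse. So did DKO males 914 and 917, at 32.7 and 18.2 CPM, while male 915 at 38.6 CPM lay within the Nf2 range. The means were 38.8 ± 3.54 and 26.0 ± 9.81 CPM (SD, n = 6 each), and the log2 fold change of -0.60 ± 0.21 SE had a 95% interval of -1.06 to -0.13 before adjustment but did not pass over all genes (edgeR adjusted p = 0.192). Mrgprf was first described in rat aorta, so mural cell genes were measured beside it. The sum of 8 mural cell genes was 139 to 223 CPM in the Nf2 group and 148 to 213 CPM in DKO mice, and none of the 8 passed the test. In mouse 886 that sum was 198 CPM and in mouse 917 it was 167 CPM, both inside the Nf2 range. Its most abundant genes were Rgs5 (82.7 CPM on average) and Pdgfrb (50.7 CPM), while Acta2 averaged 9.18 CPM. A sum of 7 fibroblast genes, set here after values were seen, was 1306 to 1648 CPM in Nf2 mice. In DKO mice 885, 886, 887, 914, 915 and 917 it was 1589, 1113, 1220, 1393, 1669 and 1308 CPM. A relation of Mrgprf to the fibroblast sum was not tested.

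The Mrgprb pair varied most. Mrgprb4 was 2.26, 12.2 and 26.3 CPM in the Nf2 males 649, 702 and 884, and 9.57, 9.83 and 12.6 CPM in the Nf2 females 918, 1048 and 1049. In DKO males 914, 915 and 917 it was 12.9, 8.22 and 13.8 CPM, and in DKO females 885, 886 and 887 it was 0.531, 1.83 and 0.710 CPM. Behind the latter were 14, 43 and 15 reads, against 770 reads in mouse 884. The highest and lowest mouse thus differed 49.5-fold, and DKO females were the 3 lowest mice with Nf2 male 649 next.

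Mrgprb5 ran the other way. It was 26.2, 19.7 and 6.70 CPM in Nf2 males 649, 702 and 884, and 21.4, 7.15 and 21.3 CPM in Nf2 females 918, 1048 and 1049. In DKO males 914, 915 and 917 it was 17.4, 14.8 and 20.3 CPM, and in DKO females 885, 886 and 887 it was 33.0, 45.8 and 35.4 CPM. The DKO females were the 3 highest mice, 649 was again next to them, and 884 and 1048 were the 2 lowest.

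Over all mice, neither gene passed between genotypes. Mrgprb4 had a log2 fold change of -0.95 ± 0.70 SE (95% interval -2.51 to 0.62, edgeR adjusted p = 0.583), with means of 12.1 ± 7.88 and 6.33 ± 6.13 CPM (SD, n = 6 each). Mrgprb5 had 0.68 ± 0.37 SE (95% interval -0.14 to 1.51, edgeR adjusted p = 0.422), with means of 17.1 ± 8.15 and 27.8 ± 12.2 CPM. Both intervals are wide, and that of Mrgprb4 includes a fall of 1 log2 unit as well as 0.

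The spread of the pair was large within a wide band of abundance. Mrgprb4 and Mrgprb5 averaged 9.23 and 22.4 CPM, and genes nearer to these levels were not compared separately. The within-genotype coefficient of variation was 82.5% for Mrgprb4 and 45.9% for Mrgprb5, larger than in 99.6% and 98.2% of the 11077 genes with a mean of 5 to 150 CPM, whose median was 11.7%. Mrgpre, at 10.5%, lay below that median. The others were between 19.1% (Mrgprd) and 30.5% (Mrgprx1).

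The sum of both genes had a within-genotype coefficient of variation of 22.6%, below that of either gene but above the median of 11.7%. It was 29.2 ± 6.27 CPM in Nf2 mice (17.0 to 33.9) and 34.1 ± 8.08 CPM in DKO mice (23.0 to 47.6). The division of these reads differed widely between mice. Mrgprb4 made up 7.95% of them in Nf2 male 649 (95% Wilson interval 6.13 to 10.2%) and 79.7% in Nf2 male 884 (77.1 to 82.1%), and between 30.9% and 57.9% in the other 4 Nf2 mice. The share was 35.8 to 42.6% in DKO males, and 1.58% (0.946 to 2.64%), 3.84% (2.87 to 5.14%) and 1.97% (1.19 to 3.22%) in DKO females. These intervals cover counting error only. Between mice 649 and 884, of the same genotype and labelled sex, they are far apart.

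**Figure D2:**
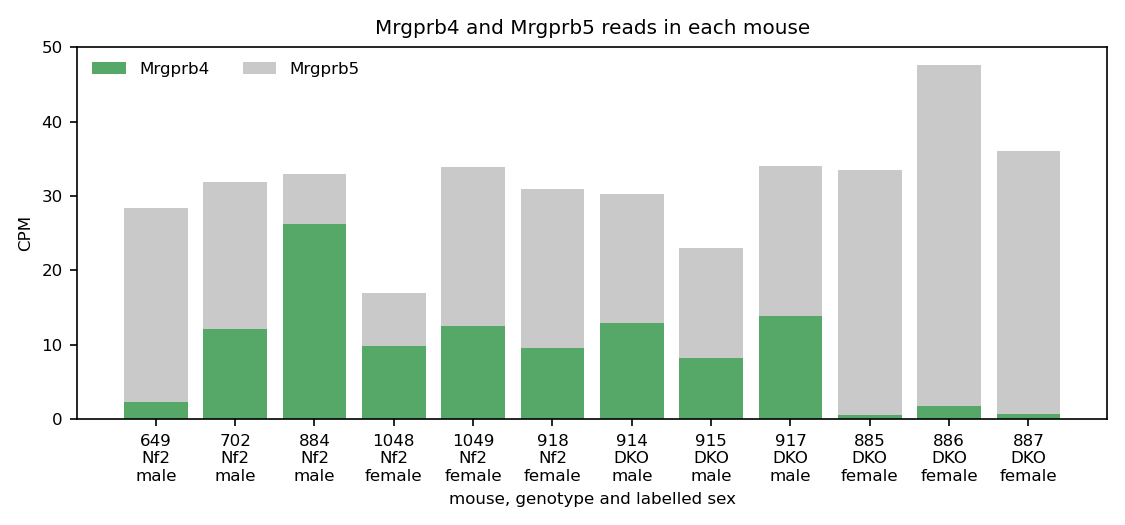
Reads of Mrgprb4 (green) and Mrgprb5 (grey) in each mouse, stacked, in CPM (vertical axis from 0), with genotype and labelled sex under each mouse number. The stacked heights lie between 17.0 and 47.6 CPM, while the Mrgprb4 part runs from 1.58% to 79.7% of the stack and is smallest in the 3 DKO females and Nf2 male 649.

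The genotype comparison was then split by labelled sex. Among females alone, 57 of 18487 genes passed (0.308%), and Mrgprb4 was 1 of them and the only receptor of the 7. Its log2 fold change in females was -3.38 ± 0.41 SE, lower in DKO (edgeR adjusted p = 0.0227, 3 of 3 mice below all 3 Nf2 females). The 3 DKO females are consecutively numbered, directly after Nf2 male 884, the mouse with the highest Mrgprb4. Whether the DKO females share more than genotype and sex was not tested. In the same fit Mrgprx1 had -0.78 ± 0.19 (edgeR adjusted p = 0.239), Mrgprb5 1.19 ± 0.37 (edgeR adjusted p = 0.433) and Mrgprf -0.83 ± 0.28 (edgeR adjusted p = 0.472). Among males alone, 2 of 18415 genes passed (0.0109%) and none of the receptors. Mrgprb4 had -0.26 ± 0.67 there (edgeR adjusted p = 0.891), with mouse 649 below and 884 above all DKO males, and -0.34 ± 0.78 without mouse 702 (edgeR adjusted p = 0.859), where 9 genes passed. With sex as a covariate in all mice, the log2 fold change of Mrgprb4 was -1.61 (edgeR adjusted p = 0.280), and -1.91 without mouse 702 (edgeR adjusted p = 0.276).

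The difference between the sexes in the effect of genotype did not pass for any receptor. This fit counted Nf2 mouse 702 as male, against its Xist and Ddx3y levels, and the repeat without that mouse is not reported here. For Mrgprb4 the interaction was 3.11 ± 0.94 (males minus females, log2), with an unadjusted p in edgeR of 0.00641 and an adjusted p of 0.920, and 2 of all genes passed that test (0.0109%). Mrgprx1 had -0.78 ± 0.19 in females and 0.05 ± 0.25 in males, the latter smaller than its SE. Its interaction was 0.82 ± 0.34 (edgeR adjusted p = 0.920). Between males and females over both genotypes, 3 genes passed (0.0164%) and none of the 7, where Mrgprb4 was 1.73 ± 0.66 higher in males (edgeR adjusted p = 1.00). Within DKO mice 9 genes differed between the sexes (0.0492%), again without a receptor, and Mrgprb4 had -3.48 ± 0.73 in females (edgeR adjusted p = 0.307). Within Nf2 mice edgeR called 0 genes between the sexes (0.0%), with 477 at an unadjusted p under 0.05 (2.61%), and the Mrgprb4 difference was -0.38 ± 0.61 (edgeR adjusted p = 1.00). So the call for Mrgprb4 rests on the comparison of females, and a dependence on sex was not established.

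**Figure D3:**
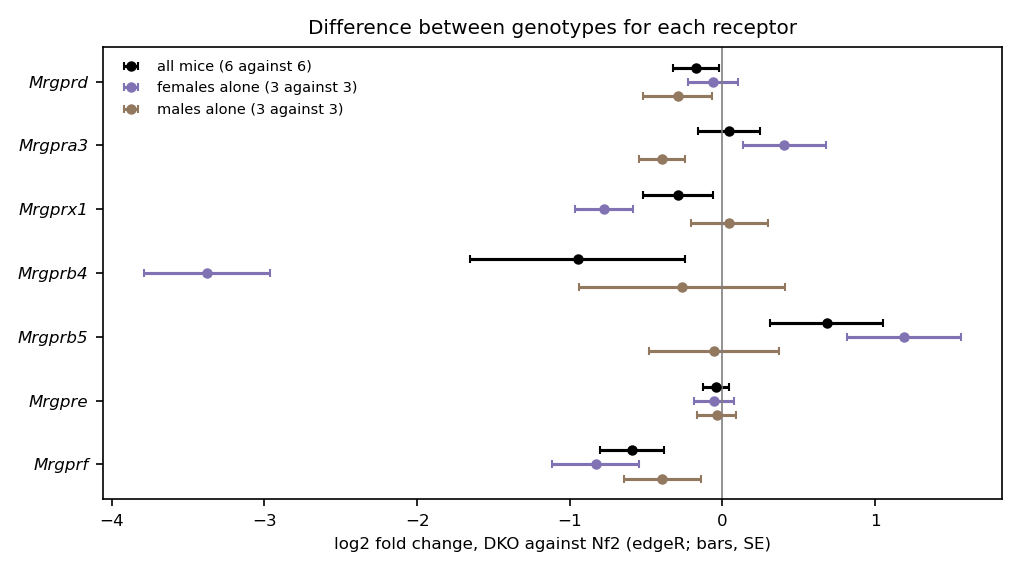
Log2 fold change of DKO against Nf2 (horizontal axis; points, bars SE, edgeR) for the 7 receptors in all mice (black), labelled females (purple) and labelled males (brown). Mrgprb4 in females, at -3.38, is the 1 value past the adjusted threshold, while the 3 estimates of Mrgprd and of Mrgpre lie close together.

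The other Mrgpr genes of the cluster showed which of them shared this pattern. The table held 27 more family genes, counting the founding gene Mas1, of which 10 passed the filter and none was called between genotypes. Mrgprx3-ps, a pseudogene, was the most abundant (14.3 CPM on average), followed by Mrgpra2b (2.58), Mrgpra14 (1.37), Mrgprc1-ps (1.23), Mas1 (0.822), Mrgpra4 (0.806), Mrgpra2a (0.792), Mrgpra1 (0.614), Mrgpra9 (0.528) and Mrgprc2-ps (0.436 CPM). Mrgprb12-ps, Mrgprh, Mrgprb1 and Mrgprx2 averaged between 0.104 and 0.315 CPM and were not tested. Mrgprb2, the mast cell receptor, averaged 0.0326 CPM.

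Because the DKO females stood apart in Mrgprb4, their position was then examined for all 17 family genes tested, a choice made after seeing those values. The 3 DKO females lay outside the range of the other 9 mice in 6 of the 17, against 1.37% of all genes tested. Mrgprb4, which prompted the look, is 1 of the 6, and similar neighbouring genes do not count independently. The share of all genes is therefore given for scale and tests no enrichment. Mrgpra2a, Mrgpra2b and Mrgprb4 were below, and Mrgpra14, Mrgpra4 and Mrgprb5 above. Mrgpra2b was 0.0473 to 0.455 CPM in DKO females and 1.91 to 5.83 CPM in the other mice, with 1 read in mouse 887. Mrgpra2a, a close paralog whose reads may not be separable from it, was 0.128 to 0.190 CPM against 0.609 to 1.83 CPM. On the other side, Mrgpra14, an annotated pseudogene, was 1.79 to 2.96 CPM in DKO females and 0.0367 to 1.72 CPM elsewhere. All 6 genes lie in the cluster between Mrgpra2a and Mrgprb4. Within the same interval Mrgpra3, Mrgprc1-ps, Mrgprc2-ps and Mrgprx1 overlapped between DKO females and the others, as did Mrgpre, Mrgprf and Mrgprd farther along the chromosome.

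Against DKO males alone, the DKO females did not overlap in 10 of 17 family genes, where 12.7% of all genes did not. The same limits hold for this count. Besides the 6 above, Mrgprx1, Mrgpra9 and Mrgprc1-ps were lower and Mrgpra3 was higher in females. The same split within Nf2 mice separated 1 of 17, Mrgprx3-ps, against 6.9% of all genes (again only Mrgprx3-ps without mouse 702, against 13.3%), so no receptor of the 7 was separated by sex there. Individual Nf2 mice departed from the rest in the opposite direction. Mice 884 and 1048 had the 2 lowest values of Mrgprb5, Mrgpra14 and Mrgpra4 and the 2 highest of Mrgpra2a and Mrgpra2b. In mouse 1048 Mrgpra14 was 0.0367 CPM, from 1 read.

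**Figure D4:**
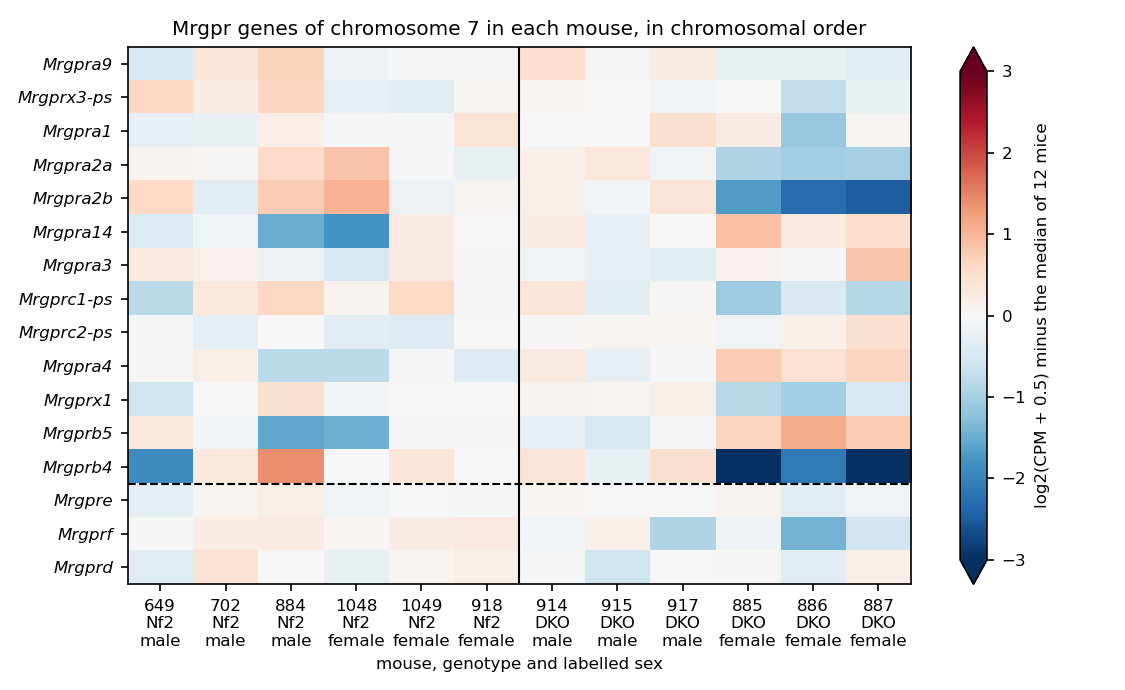
The 16 tested Mrgpr genes of chromosome 7 in chromosomal order (rows) in each mouse (columns, Nf2 left and DKO right of the line). Colour is log2(CPM + 0.5) minus the median of the 12 mice, and stops at -3 and 3. In the cluster above the dashed line the DKO females 885, 886 and 887 are blue for Mrgpra2a, Mrgpra2b, Mrgprx1 and Mrgprb4 and red for Mrgpra14, Mrgpra4 and Mrgprb5, and below the line Mrgpre and Mrgprd do not set the DKO females apart.

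Neuronal totals are given beside the lowest Mrgprb4 values. Over the 12 mice the pan-neuronal sum and Mrgprb4 had r = -0.51 (permutation p = 0.0907, adjusted 0.265) and rho = -0.45 (permutation p = 0.148, adjusted 0.364). Their r was -0.71 within Nf2 and -0.60 within DKO mice. With that sum as a covariate, the genotype log2 fold change of Mrgprb4 was -1.02 (edgeR adjusted p = 0.375). The lowest mice were not tested separately, and a relation of the NP1 sum to Mrgprb4 was not tested. The pan-neuronal sum was 9255 CPM in mouse 649, the highest of all, and 7277, 7036 and 8040 CPM in DKO females 885, 886 and 887, within the range of the other mice. The sum of the NP1 genes was 1991, 2213, 1916 and 2115 CPM in these 4 mice, where all Nf2 mice ran from 1961 to 2357 CPM.

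Mrgprx1 and Mrgprb4 both had their 4 lowest values in mice 649, 885, 886 and 887. Since the mice thus fell into separate levels, no relation among Mrgprx1, Mrgprb4, Mrgprb5 and Mrgpra3 is given over all 12 mice. For relations among these genes, only the other 8 mice, all above 5 CPM of Mrgprb4, were examined. There the log2(CPM + 4) levels of Mrgprx1 and Mrgprb4 had r = 0.87 (exact permutation p = 0.0536, adjusted over 6 relations 0.321) and Spearman's rho = 0.64 (exact permutation p = 0.0962, adjusted 0.453). Without the 2 mice farthest from the median of Mrgprx1, r was 0.22, so the relation rests on those mice. Mrgprb4 and Mrgprb5 had r = -0.42 in the 8 mice (exact permutation p = 0.384, adjusted 0.622) and rho = -0.19 (exact permutation p = 0.665, adjusted 0.797), and r was 0.48 without the 2 farthest mice. The opposed course of the pair was therefore seen between the 2 levels and not established within the upper one.

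Relations of Mrgprd, Mrgpre and Mrgprf were taken over all 12 mice, so those with Mrgprx1, Mrgprb4 or Mrgprb5 include the separate levels above. Over 35 relations in 12 mice, none that involved Mrgprd, Mrgpre or Mrgprf passed adjustment. Mrgprx1 with Mrgpre had r = 0.66 (permutation p = 0.0215, adjusted 0.188) and rho = 0.55 (permutation p = 0.0671, adjusted 0.308), and r was 0.90 without the 2 mice farthest from the median of Mrgprx1, 0.93 within Nf2 and 0.51 within DKO mice. Mrgprb5 with Mrgprf had r = -0.60 (permutation p = 0.0372, adjusted 0.191) and rho = -0.55 (permutation p = 0.0704, adjusted 0.308), and r was -0.67 without the 2 mice farthest from the median of Mrgprb5, -0.05 within Nf2 and -0.68 within DKO mice. Mrgprf and the mural cell sum had r = 0.0070 (permutation p = 0.983) and rho = 0.00 (permutation p = 1.00). Mrgprf and the pan-neuronal sum had r = -0.19 (permutation p = 0.540, adjusted 0.708) and rho = -0.63 (permutation p = 0.0324, adjusted 0.227). Their r was -0.99 within Nf2 and -0.23 within DKO mice.

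As a description over 12 mice that share library and tissue, the genes whose level followed Mrgprd most closely after removing the genotype means were Psd4 (r = 0.81), Armc8 (0.81) and Nlrc5 (0.79) among 11966 genes. For Mrgpra3 they were Prkx (0.87), Zfp830 (0.84) and Eif4e3 (0.84).

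Genes of the neurons that carry these receptors showed no called difference either. Of 10 NP1 genes, which mark the Mrgprd class, none passed, 3 were higher and 7 lower, and the median log2 fold change was -0.08, where the median of all tested genes was 0.0047. Ret was 520 ± 85.6 CPM in Nf2 and 519 ± 68.5 CPM in DKO mice (SD, n = 6 each), with -0.02 ± 0.12 (log2 fold change and SE, edgeR adjusted p = 0.952). Scn11a, which encodes the sodium channel Nav1.9, had -0.19 ± 0.11 (edgeR adjusted p = 0.471), and Cd55, a complement inhibitor on the cell surface, had 0.05 ± 0.15 (edgeR adjusted p = 0.913).

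The 7 NP3 genes mark the other class of itch neurons, which lacks Mrgpra3. None passed, all 7 had lower estimates in DKO, and the median was -0.27. Osmr, the oncostatin M receptor, had -0.24 ± 0.10 (edgeR adjusted p = 0.296), and Il31ra, its partner in the interleukin-31 receptor, had -0.70 ± 0.30 (edgeR adjusted p = 0.293). Nts, the precursor of neurotensin, had -0.10 ± 0.27 (edgeR adjusted p = 0.902). Within DKO, female 885 had an NP3 sum of 85.0 CPM, and the other DKO mice 128 to 178 CPM.

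Itch transduction genes, a list of ion channels, a phospholipase and other receptors, were likewise not called (0 of 10, 2 higher and 8 lower, median -0.05). Plcb3, which encodes a phospholipase C, had -0.13 ± 0.08 (edgeR adjusted p = 0.496), and the capsaicin receptor Trpv1 had -0.01 ± 0.11 (edgeR adjusted p = 0.975). Gfra1, a GDNF coreceptor, had 0.06 ± 0.16 (edgeR adjusted p = 0.909). Among 8 regulators of the nociceptor lineage, 0 passed (3 higher, 5 lower, median -0.15). Cbfb, the partner of Runx proteins, had 0.07 ± 0.06 (edgeR adjusted p = 0.658), Klf7 0.04 ± 0.18 (edgeR adjusted p = 0.939) and Pou4f1, or Brn3a, -0.11 ± 0.10 (edgeR adjusted p = 0.669).

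Genes of other neuron classes were not called either. None of 8 peptidergic genes passed (4 higher, 4 lower, median 0.0043), and Calca, the gene for CGRP, had 0.01 ± 0.11 (edgeR adjusted p = 0.970). Tac1, the substance P precursor, had 0.03 ± 0.17 (edgeR adjusted p = 0.957). Gfra3, the artemin coreceptor, chosen after its value was seen, lay near the threshold with -0.42 ± 0.10 (edgeR adjusted p = 0.0564) and all 6 DKO mice below the Nf2 mean. None of 8 A-fiber genes passed (6 higher, 2 lower, median 0.07), where Ntrk3, the NT-3 receptor, had 0.31 ± 0.07 (edgeR adjusted p = 0.0654) and all 6 DKO mice above all 6 Nf2 mice. Nefh, the heavy neurofilament, had 0.08 ± 0.08 (edgeR adjusted p = 0.690) and Ntrk2 -0.07 ± 0.11 (edgeR adjusted p = 0.819). The 3 genes of low-threshold C fibers, Th, Fam19a4 and Slc17a8, did not pass (1 higher, 2 lower, median -0.0015).

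Markers of cells other than neurons were measured for the same libraries. In whole DRG, 1 of 8 macrophage genes passed and all 8 were lower in DKO (median -0.39). It was C1qb, a complement subunit, with a log2 fold change of -0.71 ± 0.12 SE (edgeR adjusted p = 0.0138). It passed in 12 of 12 fits that each left out 1 mouse. In either sex alone and without the DKO females its log2 fold change stayed between -0.81 and -0.61 but did not pass (edgeR adjusted p 0.105 to 0.351), and in the permutation tests, which called 0 genes, its adjusted p was 0.111. The macrophage sum was 189 to 285 CPM in Nf2 and 154 to 207 CPM in DKO mice. None of the mast cell (6 tested), mural cell (8), fibroblast (7), Schwann and satellite glia (8), skeletal muscle (8) and spinal cord (5) genes passed, with medians of -0.33, 0.17, 0.07, 0.0045, -2.24 and 0.66. Skeletal muscle genes summed to 10.4 to 990 CPM in Nf2 and 17.2 to 305 CPM in DKO mice, with means of 509 ± 390 and 111 ± 102 CPM (SD, n = 6 each), and all 8 had lower estimates in DKO. All 5 spinal cord genes had higher estimates in DKO, with sums of 13.3 to 47.1 CPM in Nf2 and 14.2 to 87.5 CPM in DKO mice. The part of these other cells in the receptor levels was not tested.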

How the data were processed

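DRG RNA of 12 mice was prepared as poly(A) libraries and sequenced, per the study's methods. Per the submitters' processing notes, reads were trimmed with Trimmomatic 0.36, aligned with STAR 2.5.2b to GRCm38 and counted with featureCounts of Subread 1.5.2. The deposited values are raw counts per gene, summed by the authors and not normalized. The annotation release, the strand setting and the treatment of reads that match several genes are not given in the sources used here, so counts of Mrgpr paralogs are uncertain where their sequences are shared, and reads of overlapping genes on opposite strands may not be told apart.

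Groups follow the labels, and replicates are separate mice. CPM is the count divided by the library total, and TPM uses exon lengths from GENCODE M21, which matched 49056 of 49315 identifiers (99.5%). Differences were tested with edgeR 4.0.16 (R 4.3.3): filterByExpr by genotype, TMM scaling, quasi-likelihood F test, Benjamini-Hochberg over all genes tested, threshold 0.05. Adjusted p-values of single genes come from this fit. Sex was tested in fits of all 12 mice, and in either sex alone. Alternatives were other scalings and filters, DESeq2 1.42.0, limma 3.58.1 (voom with quality weights), exact permutation over 924 splits of the mice, covariates and leaving out mice. Tests were two-sided, and correlations over 12 mice used 100000 permutations. The code was tested on simulated data.

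Genes named outside the 7 receptors were those of each list past the threshold, otherwise up to 3 with the highest mean CPM for neuronal lists, and other family genes with a mean of at least 0.1 CPM. A further peptidergic gene is not reported here. Mrgprb2 and the genes followed by the position of DKO females were chosen after values were seen. The receptors and all gene lists were chosen with earlier results of these data known. The library totals above limit the precision of genes under 1 CPM most.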

Additional observations from a re-analysis of the deposited data

Results flagged for a closer look

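Mrgprx3-ps in DKO mouse 886 stood apart from the other 5 DKO mice. Its log2(CPM + 4) level was 3.59 (8.05 CPM), and the nearest DKO mouse had 3.98. It was the 1 such value among 34 groups of 6 mice searched, where chance gives about 1.7.

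The effect of genotype on Mrgprx1 was -0.78 ± 0.19 SE in labelled females and 0.05 ± 0.25 SE in labelled males on the log2 scale. The signs differed, but the male value was smaller than its SE. The interaction of 0.82 did not pass over all genes (edgeR adjusted p = 0.920).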

How the results depend on the processing

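No receptor passed between genotypes in 27 of 28 alternatives, and 1, Mrgprb4, passed in the females alone. Over these alternatives the log2 fold change of Mrgprd stayed between -0.29 and -0.060 and that of Mrgprf between -0.83 and -0.35, with a lowest adjusted p of 0.0867 (DESeq2). Mrgprb4 kept its sign but ranged widely around -0.95, with -1.80 by limma voom, -1.61 with sex as covariate, -3.38 in females, -0.26 in males, -0.57 without Nf2 mouse 884 and -0.095 without the DKO females. The count of all genes called was 831 with DESeq2, 521 with limma voom, 769 with the pan-neuronal sum as covariate, 2 in males alone, 57 in females alone, and, in alternatives chosen after seeing the data, 56 without the DKO females, 9 in males without mouse 702 and 87 with sex as covariate without mouse 702. It was 0 in the exact permutation tests on log2(CPM + 4) and 0 on log2(CPM + 1), where the smallest p possible is 0.00216 and 2738 and 2735 genes had an unadjusted p under 0.05. Leaving out each mouse in turn gave 81 to 217, with the fewest without Nf2 mouse 918. Signs turned for Mrgpra3 to -0.11 with limma voom, -0.40 in males (-0.38 without mouse 702), -0.32 without DKO females and, leaving out each mouse, over -0.19 to 0.12. They turned for Mrgprx1 to 0.045 in males (0.038 without mouse 702) and 0.081 without DKO females, for Mrgprb5 to -0.055 and -0.011 in the same settings, and for Mrgpre over -0.082 to 0.0089 when leaving out each mouse, and for the Nf2 gene itself to 0.0049 in males without mouse 702; the cause was not tested. Without Nf2 mouse 702, whose sex label its genes go against, 10 genes differed by sex, 17 between DKO females and males (2 to 17 leaving out each mouse, fewest without DKO mouse 917) and 7 between Nf2 females and males, none of them a receptor. In those contrasts Mrgprd turned to 0.18 in Nf2 mice without mouse 702, and Mrgpre ranged over -0.21 to 0.0092 in DKO mice leaving out each mouse. No paired analysis was possible because the genotypes share no replicate number. For Mrgprb4, 3 mice per sex and genotype and its spread limit what a difference by sex could show.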

Other observations

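Trim12a and Trim5, a pair of chromosome 7 genes chosen after their values were seen, set the DKO females apart. Of all genes tested, 1.37% had the DKO females outside the range of the other 9 mice. The pair lies far from the Mrgpr cluster, and a relation to it was not tested. Trim12a (chr7:104299894-104315466), of the TRIM family of ubiquitin ligases, was 0.298 to 0.493 CPM in DKO females, 11.0 to 12.1 CPM in DKO males and 20.7 to 31.7 CPM in Nf2 mice. Its neighbour Trim5 (chr7:104263386-104288094) was 0.0947 to 0.266, 2.68 to 4.39 and 6.71 to 9.26 CPM in the same groups. For both genes none of these groups overlapped. Of all genes tested, 1.95% had no overlap between genotypes and 12.7% had none between DKO females and DKO males. The share with all of these groups apart was not counted.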
